A study of Mus musculus with 10 samples.

Results

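BFP clones abundant at baseline were followed from baseline to disease in a mouse leukaemia. They were the barcodes of the BFP library with 100 CPM or more (CPM, reads of a barcode per 1000000 barcode reads) in the baseline sample of at least 1 of 2 donor mice. They numbered 1263 of 19704 listed barcodes and of 8924 BFP barcodes. Donor 1 had 580 of them and donor 2 had 686, and 3 barcodes reached the minimum in both baselines and were followed in both donors. The labels describe an MLL-AF9 leukaemia, grown from c-Kit-positive haematopoietic progenitor cells that had been cultured with SCF, IL-6 and IL-3 and transduced with SPLINTR barcode libraries. Each donor gave a baseline sample and 4 disease samples, namely bone marrow and spleen of each of the recipient strains NSG and Ptprca (labelled PTPRCA). The 10 samples thus form 5 groups with 2 donors each, and all carry the same fusion and the same barcode libraries. The labels give neither the age or sex of the mice, the cells or tissue of the baseline samples, the number of recipients behind a sample, nor whether marrow and spleen came from 1 animal.

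MLL-AF9 joins part of the Kmt2a (MLL) gene to Mllt3 (AF9) and drives an aggressive myeloid leukaemia when expressed in blood progenitors. A SPLINTR barcode is a short DNA sequence integrated into the genome by a lentivirus, so that every descendant of the marked cell carries it and the share of reads with that barcode estimates the share of the clone. The BFP, GFP and mCHERRY libraries are named after fluorescent proteins. NSG mice lack T, B and natural killer cells, whereas Ptprca mice, which differ from the usual C57BL/6 strain in a variant of the leukocyte antigen CD45, have a working immune system. A clone is called lost below where its CPM was under that of 3 reads in the summed reads of a sample, and detected otherwise. A count of 3 is the upper 95% limit for a count of 0. Because CPM values are means over libraries of unlike depth, clones near this limit can have slightly more or fewer reads than it implies.

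Samples had 5171235 to 10394809 reads, summed over 2 to 4 sequenced libraries, so that 3 reads corresponded to 0.289 to 0.580 CPM. Counting error on the summed shares of these clones in the disease samples was at most 0.0235 percentage points (95% Wilson interval). It leaves out PCR error, as PCR copies were not told apart by molecular identifiers. Reads of these clones in the other donor's disease samples served as a background. Of 577 clones abundant in donor 1 only, 1 was detected in any disease sample of donor 2, at 0.796 CPM. Of 683 clones abundant in donor 2 only, 1 was detected in a disease sample of donor 1, at 2.49 CPM. The baselines shared more, with 40 of the 577 detected in the donor 2 baseline at up to 68.4 CPM and 3 of the 683 in the donor 1 baseline at up to 37.3 CPM.

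At baseline the BFP clones were many and small. Their median was 179 CPM in donor 1 (quartiles 127 and 316, highest 2756) and 212 CPM in donor 2 (quartiles 140 and 408, highest 4089). Together they held 15.5% of donor 1 and 23.5% of donor 2 reads, which was 68.8% and 80.7% of all BFP reads there. Their effective number, the exponential of the Shannon entropy of their shares, was 440 and 486. The mCHERRY clones chosen by the same minimum numbered 531 and 552, with medians of 231 and 268 CPM. GFP gave 21 and 19 such clones.

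The baseline values of these clones could be split into the reads of the 2 libraries for 532 clones of donor 1 and 658 of donor 2. No clone was missing from a library, and the lowest number of reads was 230 in donor 1 and 99 in donor 2. The libraries differed by a median of 1.10-fold in donor 1 and 1.22-fold in donor 2. The largest gap was 4.75-fold, for BFP_Barcode_354505 of donor 2, a clone named after its values were seen, with 173 CPM in the first library and 36.4 CPM in the second. In 483 of the 532 and 573 of the 658 clones both libraries were at 100 CPM or more by themselves.

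The clones on either side of the minimum were alike in abundance. In donor 1, BFP_Barcode_146790 and BFP_Barcode_170119 lay just inside it at 100.02 and 100.05 CPM, and BFP_Barcode_36833 and BFP_Barcode_424185 just outside at 99.96 and 99.88 CPM. In donor 2, BFP_Barcode_136617 and BFP_Barcode_301876 lay inside at 100.3 CPM each, and BFP_Barcode_7293 and BFP_Barcode_37649 outside at 99.9 and 99.7 CPM. Their fates were mixed on both sides. BFP_Barcode_424185 reached 169.8 CPM in NSG marrow, BFP_Barcode_301876 189.6 CPM in PTPRCA marrow, and BFP_Barcode_36833 and BFP_Barcode_37649 were listed at 0 in all 4 disease samples. Of the clones of 100 to 150 CPM 46.0% in donor 1 and 53.2% in donor 2 were lost in all 4 disease samples, beside 45.8% and 46.6% of the BFP clones of 50 to 100 CPM. Detected in all 4 were 15.6% and 17.4% of the clones of 100 to 150 CPM, beside 23.6% and 16.5% of those of 50 to 100 CPM.

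The first comparison followed these clones into the disease samples. Because a high baseline value chose them, a decrease from baseline is a description here and has no test. Most were lost. In donor 1 the lost clones were 332 of 580 in NSG marrow (57.2%), 364 in NSG spleen (62.8%), 376 in PTPRCA marrow (64.8%) and 442 in PTPRCA spleen (76.2%). Over the clones of all libraries at 100 CPM or more at baseline, BFP included, the lost shares were 48.1%, 54.9%, 43.4% and 56.1% in the same order. In donor 2 they were 422 of 686 in NSG marrow (61.5%), 443 in NSG spleen (64.6%), 423 in PTPRCA marrow (61.7%) and 512 in PTPRCA spleen (74.6%), beside 42.2%, 44.2%, 41.2% and 52.8% for all libraries. PTPRCA spleen had the most lost BFP clones in both donors. The mCHERRY clones abundant at baseline lay lower in every sample, at 21.1% to 47.5% in donor 1 and 16.3% to 26.4% in donor 2.

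The detected clones had mostly shrunk. In donor 1 their median level was 3.67 CPM in PTPRCA marrow, 7.92 CPM in PTPRCA spleen, 8.04 CPM in NSG spleen and 14.1 CPM in NSG marrow, between 15.7-fold and 82.6-fold below the clone's own baseline. In donor 2 it was 3.05 CPM in NSG spleen, 4.20 CPM in PTPRCA marrow, 5.48 CPM in NSG marrow and 19.5 CPM in PTPRCA spleen, between 15.8-fold and 79.2-fold below baseline. Between 9 and 26 clones per sample held within 2-fold of baseline. At least doubled were 21, 23, 12 and 10 clones in NSG marrow, NSG spleen, PTPRCA marrow and PTPRCA spleen of donor 1 (3.62%, 3.97%, 2.07% and 1.72%), beside 8.39%, 7.86%, 8.13% and 8.04% over all libraries. In donor 2 they were 14, 11, 11 and 12 (2.04%, 1.60%, 1.60% and 1.75%), beside 11.9%, 11.5%, 8.83% and 7.64%. At 100 CPM or more stood 52, 33, 23 and 19 clones in NSG marrow, NSG spleen, PTPRCA marrow and PTPRCA spleen of donor 1, and 34, 27, 36 and 33 in donor 2.

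Low detections were less certain than high ones. In the 6 disease samples with 2 libraries, 90 of 178 split values below 1 CPM had reads in 1 library only, as did 102 of 562 values of 1 to 10 CPM 0 of 338 values of 10 to 100 CPM and 0 of 178 values above that. Where a clone had 100 CPM or more, its libraries differed by a median of 1.03-fold to 1.13-fold in PTPRCA marrow of donor 1 and in NSG spleen, PTPRCA marrow and PTPRCA spleen of donor 2. The gap was 1.65-fold in NSG marrow of donor 1 and 3.06-fold in PTPRCA spleen of donor 1. Values of those last samples therefore rest on libraries that differ more. Whether the libraries of a sample came from the same cells or the same recipient was not given, so that the source of the gap cannot be told.

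Loss was often shared by all samples of a donor. In donor 1, 240 of 580 clones (41.4%, 95% Wilson interval 37.4% to 45.4%) were lost in all 4 disease samples, and in donor 2, 294 of 686 (42.9%, 39.2% to 46.6%). These intervals treat clones as independent, although the clones of a donor share its samples and libraries. They do not measure the spread between mice. Over all libraries the shares were 29% and 28.2%, and for mCHERRY 16.2% and 9.96%. Detection in all 4 samples was found for 90 BFP clones of donor 1 (15.5%) and 113 of donor 2 (16.5%), beside 29.4% and 39.9% over all libraries and 43.3% and 68.3% for mCHERRY. The other clones were detected in 1 to 3 samples. Where lost meant below 10 CPM, 69.8% of the clones of donor 1 and 77.6% of those of donor 2 were lost in all 4.

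Many BFP clones were detected in 1 recipient strain and not in the other. Donor 1 had 117 clones detected in NSG only (20.2%), 64 in PTPRCA only (11.03%) and 159 in both strains, beside 12.2% in NSG only and 15.2% in PTPRCA only over all libraries. Donor 2 had 108 (15.7%), 80 (11.7%) and 204, beside 10.7% and 8.83%. For mCHERRY these counts were 20, 107 and 318 in donor 1 and 26, 29 and 442 in donor 2. Within a strain, more clones were detected in marrow only than in spleen only, among BFP clones and over all libraries alike. In donor 1, 188 BFP clones were detected in both tissues of NSG, 60 in marrow only (10.3%) and 28 in spleen only (4.83%), beside 10.8% and 3.98% over all libraries. In PTPRCA of donor 1 these were 119, 85 (14.7%) and 19 (3.28%), beside 14.9% and 2.21%. In donor 2 the NSG counts were 195, 69 (10.1%) and 48 (6.997%), beside 7.24% and 5.17%, and the PTPRCA counts were 153, 110 (16.0%) and 21 (3.06%), beside 14% and 2.39%. Clones seen in a single disease sample were faint, with medians of 0.688 to 1.94 CPM. BFP_Barcode_459913 of donor 1 and BFP_Barcode_172951 of donor 2, named after their values were seen, were exceptions at 203 and 236 CPM in NSG marrow alone.

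The share lost from all samples was lower in the classes of larger baseline clones. In donor 1, 155 of 331 clones of 100 to 200 CPM (46.8%) were lost in all 4, then 59 of 141 (41.8%) from 200 to 400 CPM, 25 of 96 (26.0%) from 400 to 1000 CPM and 1 of 12 above that. In donor 2 the numbers were 158 of 311 (50.8%), 86 of 198 (43.4%), 45 of 142 (31.7%) and 5 of 35. The mCHERRY clones of the lowest class were lost in all 4 in 15.9% and 12.6% of cases. The ranks of clones at baseline and at disease were weakly related. Spearman's rho between the baseline and a disease sample, across clones of that sample's own donor, was -0.000449 to 0.132 in donor 1 and 0.0116 to 0.208 in donor 2. It is a description over 580 and 686 clones that share their libraries.

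None of the largest baseline clones led at disease. Of the clones at 1000 CPM or more at baseline, 12 in donor 1 and 35 in donor 2, 0 reached 1000 CPM in any disease sample of their donor, and the best kept 0.225 of its baseline level. That clone was BFP_Barcode_2119, the largest of donor 2 at 4089 CPM (4463 and 3714 CPM in its libraries), which stood at 210 and 108 CPM in NSG marrow and spleen and at 524 and 922 CPM in PTPRCA marrow and spleen. The next largest of donor 2, BFP_Barcode_95006, had 3828 CPM (4513 and 3143 CPM in its libraries) and 0 CPM in each of the 4 disease samples, where 3 reads would be 0.289 to 0.532 CPM. BFP_Barcode_6180 went from 2334 CPM to between 4.81 and 114 CPM. BFP_Barcode_113822 and BFP_Barcode_125161, at 1838 and 1784 CPM, had at most 3.81 and 4.49 CPM at disease. Besides BFP_Barcode_95006, the clones of this size lost in all 4 samples were BFP_Barcode_106866 of donor 1 and BFP_Barcode_5944, BFP_Barcode_38857, BFP_Barcode_200014 and BFP_Barcode_236851 of donor 2, named after their values were seen, at 1077, 1125, 1128, 1335 and 1453 CPM at baseline.

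Donor 1 gave the same picture for its 5 largest BFP clones. BFP_Barcode_32881 went from 2756 CPM to 246 and 19.6 CPM in NSG marrow and spleen and to 18.4 and 112 CPM in PTPRCA marrow and spleen. BFP_Barcode_288277 went from 2494 CPM to a mean of 49.0 CPM over the 4 disease samples, BFP_Barcode_26614 from 1748 to 15.9 CPM and BFP_Barcode_316975 from 1228 to 14.6 CPM. BFP_Barcode_63639, at 1273 CPM, had 0.358 CPM in NSG marrow, 1.48 CPM in PTPRCA marrow and 0 in both spleens.

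A small set of clones expanded. At least doubling in 1 or more disease samples was seen for 28 of 580 clones of donor 1 (4.83%, 95% Wilson interval 3.36% to 6.89%) and 29 of 686 of donor 2 (4.23%, 2.96% to 6.01%). Here too the intervals treat clones as independent and leave out the spread between mice. The share was 12.4% and 16.2% over all libraries, and 20.5% and 31.7% for mCHERRY. These BFP clones started at 101 to 611 CPM in donor 1 (median 139) and at 102 to 486 CPM in donor 2 (median 146), and held 0.528% and 0.575% of baseline reads. At disease they held 88.9% to 95.1% of the reads of BFP clones abundant at baseline in donor 1 and 69.3% to 94.7% in donor 2. They were chosen by these same disease values, so that a high share follows in part from the choice. Doubling in all 4 samples occurred for 7 clones of donor 1 and 3 of donor 2. In donor 1, 14 clones doubled in NSG only (2.41%), 3 in PTPRCA only (0.517%) and 11 in both strains, beside 2.47% and 3.45% in 1 strain only over all libraries. In donor 2 these were 12 (1.75%), 11 (1.60%) and 6, beside 5.89% and 2.47%.

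In donor 1 the largest mean rise was that of BFP_Barcode_305162. It had 101 CPM at baseline (102.7 and 99.6 CPM in its libraries), 959 and 719 CPM in NSG marrow and spleen and 5518 and 9919 CPM in PTPRCA marrow and spleen, a mean 42.3-fold above baseline. It was high in all 4 samples and higher in PTPRCA. Its PTPRCA spleen value averages 2406 and 17432 CPM in the libraries, a 7.25-fold gap, whereas the marrow libraries had 5213 and 5824 CPM.

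The other leading clones of donor 1 grew mainly in NSG. BFP_Barcode_112923 rose from 157 CPM to 16763 and 6349 CPM in NSG marrow and spleen, and stood at 36.6 and 2.38 CPM in PTPRCA marrow and spleen. BFP_Barcode_54421 rose from 111 CPM to 10484 and 3568 CPM in NSG, with 18.9 and 122 CPM in PTPRCA. Both were thus large in one recipient strain and below or near baseline in the other. BFP_Barcode_211487 rose from 156 CPM to 3921 and 16723 CPM in NSG and to 356 and 466 CPM in PTPRCA, above baseline in every sample. BFP_Barcode_208869 rose from 138 CPM to 6015 and 7148 CPM in NSG, and had 276 and 92.3 CPM in PTPRCA. Of these, BFP_Barcode_112923, BFP_Barcode_54421 and BFP_Barcode_211487 made up 1% of reads or more in at least 1 of donor 1's disease samples. The 7 clones of donor 1 doubled in all 4 samples were BFP_Barcode_305162, BFP_Barcode_211487 and 5 named after their values were seen. Of these, BFP_Barcode_240571 had 1793, 2362, 1019 and 3722 CPM in NSG marrow, NSG spleen, PTPRCA marrow and PTPRCA spleen after 119 CPM at baseline, and BFP_Barcode_159639 had 1547, 2359, 1859 and 596 CPM after 141 CPM. BFP_Barcode_24961, BFP_Barcode_153072 and BFP_Barcode_198330 averaged 1170, 668 and 439 CPM. The 3 clones doubled in PTPRCA only, also named after their values were seen, were BFP_Barcode_70931, BFP_Barcode_431716 and BFP_Barcode_486952. BFP_Barcode_486952 was high in PTPRCA marrow alone, at 448 CPM, with 2.63 to 5.70 CPM in the other samples and 115 CPM at baseline.

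In donor 2, 1 of the BFP clones abundant at baseline made up 1% of reads or more in a disease sample, BFP_Barcode_97773. From 383 CPM at baseline (382.5 and 384.0 CPM in its libraries) it stood at 582 and 353 CPM in NSG marrow and spleen and at 13163 and 75378 CPM in PTPRCA marrow and spleen. NSG values stayed within 2-fold of baseline and PTPRCA values were far above it, the spleen above the marrow. The other risers of donor 2 stayed smaller. BFP_Barcode_254754 went from 112 CPM to 484, 515, 1970 and 322 CPM in NSG marrow, NSG spleen, PTPRCA marrow and PTPRCA spleen. BFP_Barcode_14569, in the same order, went from 124 CPM to 307, 326, 302 and 1655 CPM, and BFP_Barcode_333099, named after its values were seen, from 393 CPM to 2181, 1886, 1146 and 815 CPM. These were the 3 clones of donor 2 doubled in all 4 samples.

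The samples of a donor also differed within a strain. BFP_Barcode_140419 of donor 2 was at 113 CPM at baseline and at 2441 CPM in NSG spleen (2427 and 2456 CPM in its libraries), against 113 CPM in NSG marrow and 340 and 272 CPM in PTPRCA marrow and spleen. BFP_Barcode_102509 went from 112 CPM to 49.4 CPM in NSG marrow and to 427 to 707 CPM in the other samples of donor 2.

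As a whole, BFP clones abundant at baseline held fewer reads at disease. In donor 1 their summed share went from 15.5% to 7.27% in NSG marrow, 7.01% in NSG spleen, 1.83% in PTPRCA marrow and 2.45% in PTPRCA spleen. In donor 2 it went from 23.5% to 1.65%, 1.67%, 2.94% and 8.90% in the same order. The mean of both donors was 4.46% ± 3.97 (SD, n = 2) in NSG marrow, 4.34% ± 3.77 (SD, n = 2) in NSG spleen, 2.39% ± 0.782 (SD, n = 2) in PTPRCA marrow and 5.67% ± 4.56 (SD, n = 2) in PTPRCA spleen, and the donors' values of each group overlapped those of every other group in range. They also made up less of the BFP library. From 68.8% of BFP reads in donor 1 they went to 25.3% to 38.3%, and from 80.7% in donor 2 to 27.0% to 52.6%, apart from PTPRCA spleen at 78.4%. Clones below 100 CPM or unseen at baseline supplied the rest. For mCHERRY the same figure went from 89.3% to 63.2% to 72.6% in donor 1 and from 89.7% to 79.3% to 86.2% in donor 2.

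Few clones carried the disease share. The effective number within the set went from 440 to between 11.5 and 22.9 in donor 1, and from 486 to 52.5, 26.6, 16.1 and 2.79 in NSG marrow, NSG spleen, PTPRCA marrow and PTPRCA spleen of donor 2. The 5 largest of 580 clones held 55.2% to 73.4% of the set's reads in donor 1, and the 5 largest of 686 held 31.5% to 89.2% in donor 2. BFP_Barcode_97773 alone held 44.8% in PTPRCA marrow and 84.7% in PTPRCA spleen of donor 2. Without the largest clone of each sample the summed shares of donor 2 were 1.44%, 1.41%, 1.62% and 1.36%, and those of donor 1 were 5.60%, 5.33%, 1.28% and 1.45%.

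The next comparison was between recipient strains, on disease values that had no part in choosing the clones. Each donor gave 1 sample per strain and tissue, with no replicate of its own. Within a donor, strain thus cannot be told apart from other differences between recipients. Clones were counted when log2(CPM + 10) differed by over 2, a 4-fold change, in marrow and in spleen alike. On this scale the change of a rare clone appears smaller than it is. In donor 1, NSG had the higher level for 22 of 580 BFP clones (3.79%) and PTPRCA for 4 (0.690%). Over all libraries at 100 CPM or more at baseline the shares were 3.8% and 6.98%, and over clones at 100 CPM or more in any sample of the donor 12.8% and 6.62%. In donor 2, NSG had the higher level for 8 of 686 BFP clones (1.17%) and PTPRCA for 11 (1.60%), beside 4.69% and 4.3% over all libraries at baseline and 10.1% and 5.36% over any sample. The share higher in NSG in donor 1 was near that of the clones abundant at baseline and below that of clones abundant in any sample, and the other shares lay below both. The set abundant in any sample, here and below, includes clones chosen by a high value in the disease samples compared. It is therefore not a like background. A clone lost in all 4 disease samples could not pass the cut. Such clones were 41.4% and 42.9% of the BFP clones (donor 1 and donor 2), beside 29% and 28.2% over all libraries at baseline. The median difference was 0 in both donors, for the BFP clones and over all libraries. Of the BFP clones, 193 of 580 and 225 of 686 were listed at 0 in all 4 disease samples, so that their difference was 0. The median thus says little about the clones still present. For donor 1 and donor 2 it was -0.105 and 0.00771 for mCHERRY, and -1.99 and -0.0726 for GFP. The number depended on the constant added, with 74 and 14 clones in donor 1 and 26 and 35 in donor 2 at a constant of 1 CPM, and 10 and 1, and 1 and 2, at 100 CPM.

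The clones higher in NSG in donor 1 included 13 that had doubled in some sample. Their mean differences were 2.20 to 8.75 on the log2 scale, led by BFP_Barcode_112923 (8.75), BFP_Barcode_60242 (6.74) and BFP_Barcode_54421 (6.63). BFP_Barcode_60242 went from 283 CPM to 3372 and 3619 CPM in NSG marrow and spleen and to 37.3 and 12.7 CPM in PTPRCA marrow and spleen. Of the 4 clones higher in PTPRCA, only BFP_Barcode_305162 (-3.14) had doubled. BFP_Barcode_145607, at 188 CPM at baseline, had 3.14 and 7.95 CPM in NSG and 90.8 and 96.7 CPM in PTPRCA. BFP_Barcode_53439, at 334 CPM, was listed at 0 in both NSG samples and had 34.3 and 71.2 CPM in PTPRCA. The fourth, BFP_Barcode_107469, was named after its values were seen, and had 0 and 2.51 CPM in NSG and 40.0 and 46.9 CPM in PTPRCA. These 3 clones differed between the strains while below baseline in both.

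In donor 2 the clones higher in NSG were led by BFP_Barcode_76723 (log2 4.02), BFP_Barcode_21005 (4.01) and BFP_Barcode_98871 (3.52). BFP_Barcode_76723, at 112 CPM at baseline, had 428 and 49.9 CPM in NSG marrow and spleen and was listed at 0 in both PTPRCA samples. BFP_Barcode_21005, at 133 CPM, had 604 and 632 CPM in NSG and 14.7 and 51.1 CPM in PTPRCA. BFP_Barcode_98871, at 135 CPM, had 269 and 150 CPM in NSG and 10.4 and 6.52 CPM in PTPRCA. The clones higher in PTPRCA were led by BFP_Barcode_97773 (-6.09), BFP_Barcode_10381 (-4.17) and BFP_Barcode_325247 (-3.98). BFP_Barcode_10381, at 486 CPM at baseline, had 89.1 and 7.21 CPM in NSG and 1427 and 376 CPM in PTPRCA. BFP_Barcode_325247, among the large baseline clones at 1251 CPM, had 0.314 and 1.63 CPM in NSG and 133 and 199 CPM in PTPRCA, below baseline in each.

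Over both donors, limma on log2(CPM + 10) called 0 of 3443 clones of all libraries between NSG and PTPRCA (0%, adjusted p below 0.05), with 1 clone at an unadjusted p below 0.05 and 0 of the 1263 BFP clones. With the donor as a block it called 10 clones (0.29%), of which 1 was a BFP clone abundant at baseline, BFP_Barcode_112923 (log2 4.37 ± 0.93 SE, adjusted p = 0.00236 by limma, higher in NSG in both tissues of donor 1 and listed at 0 in the disease samples of donor 2). Its adjusted p was 1 in the fit without the block and 1 in a block fit on the mean of marrow and spleen, which does not count the tissues as separate samples. In the block fit 12 BFP clones (0.950%) had an unadjusted p below 0.05, 9 of them higher in NSG, beside 7.2% of all clones tested. In the fit on the mean of marrow and spleen 4 BFP clones did (0.317%), beside 0.523%. All clones tested include those chosen by a high disease value, whereas the BFP clones were chosen at baseline, so that these shares are not alike in selection. On simulated clones with donors as far apart as here, the fit without the block missed nearly all 4-fold changes, so that its count of 0 does not show that clones were alike in the strains. In the fit with the donor block, BFP_Barcode_97773 had a log2 difference of -3.04 ± 0.88 SE and an adjusted p of 0.107 by limma. Nearly every BFP clone was abundant in 1 donor, so that the difference averaged over donors takes in a donor in which the clone was at or near 0.

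The last comparison set spleen against marrow. Hardly any BFP clone differed by over 4-fold in the same direction in both strains. In donor 1, 0 of 580 were higher in spleen and 1 (0.172%) higher in marrow, beside 0% and 0.265% over all libraries at baseline and 0.29% and 0.639% over clones at 100 CPM or more in any sample. In donor 2, 0 of 686 were in either direction, beside 0.159% and 0% over all libraries at baseline and 0.23% and 0.288% over any sample. The 1 clone, BFP_Barcode_70260, had 104 CPM at baseline, 197 and 163 CPM in NSG and PTPRCA marrow and 26.6 and 19.6 CPM in NSG and PTPRCA spleen. Its NSG marrow libraries differed 6.44-fold, at 340.9 and 52.9 CPM. Within NSG alone, 22 clones of donor 1 (3.79%) were over 4-fold higher in marrow and 5 (0.862%) in spleen, beside 4.95% and 1.24% over all libraries, and in donor 2 these were 21 (3.06%) and 4 (0.583%), beside 5.01% and 1.19%. Within PTPRCA they were 6 and 6 in donor 1 (1.03% each), beside 2.83% and 2.74%, and 5 (0.729%) and 2 (0.292%) in donor 2, beside 2.31% and 0.477%. limma called 0 of 3443 clones between the tissues (0%), with and without the donor block, and 0 at an unadjusted p below 0.05 in either fit. The spread in both fits includes strain differences found in a single donor, and tissue changes were not simulated. The count of 0 therefore does not show that clones were alike in the tissues.

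The difference of a clone between NSG and PTPRCA recipients was shared by the tissues, while the tissue difference was not shared by the strains. Within a donor, strain cannot be told apart from other differences between the recipients. Across the BFP clones the NSG minus PTPRCA difference in marrow correlated with that in spleen at r = 0.675 in donor 1 and 0.621 in donor 2. The spleen minus marrow difference in NSG correlated with that in PTPRCA at r = 0.0338 and 0.0124. Over all libraries at baseline the values were 0.744 and 0.719 for strain and 0.0319 and -0.0347 for tissue. These are descriptions across 580 and 686 clones, which are not independent replicates and share their libraries, and many of which stand at 0 in all 4 samples.

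The 3 barcodes abundant in both baselines stayed below baseline at disease. Whether each marks 1 clone or separately marked cells cannot be told from the table. BFP_Barcode_139027, at 241 CPM in donor 1 and 349 CPM in donor 2, was listed at 0 in every disease sample of both donors. BFP_Barcode_27084, at 138 CPM in donor 1, had 41.9 and 14.3 CPM in NSG marrow and spleen and 0 in PTPRCA, and in donor 2 it went from 102 CPM to 0 in all 4 samples. BFP_Barcode_213231 went from 121 CPM to 1.18 CPM in NSG spleen and 0 elsewhere in donor 1. In donor 2 it was detected in all 4 samples, going from 159 CPM to 49.4, 2.12, 78.1 and 17.8 CPM in NSG marrow, NSG spleen, PTPRCA marrow and PTPRCA spleen. None of the 3 reached its baseline level in a disease sample of either donor.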

How the data were processed

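The deposited table gives 1 column of CPM per sample, as the authors made it. The submitters' processing notes name Bowtie 1.2.2 and R 3.6, while the barcode reference, the filters and the averaging of libraries were not given in the sources used here. From the steps between low values each column was found to be a mean of 2 to 4 libraries (23 in all, of 1591539 to 4475416 reads), and values of columns with 2 libraries were split into whole reads per library where 1 solution existed. There were 0 columns of other samples. The labels gave each sample's strain, tissue and donor.

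Strain and tissue were compared with limma 3.58.1 in R 4.3.3 (lmFit, eBayes with a trend, Benjamini-Hochberg adjustment over all 3443 clones at 100 CPM or more in any sample) on log2(CPM + 10), with group means over 10 samples, and otherwise with Python 3.11.15. The p-values measure only the spread between these samples, which may be partly technical, and marrow and spleen count as separate samples. Replicate numbers are donor mice per the labels, so they pair the samples, and same-numbered samples deviated together (r = 0.466 to 0.944 over 10 pairs of groups). The fits and the splitting were tested on simulated data, in which a changed clone had the same strain difference in both donors. With donors apart as here, the fit without the donor block found 1% of log2 differences of 2 and 58.5% of those of 4. The fit with the block found 100% of both. Nearly every BFP clone here was abundant in 1 donor, so that this recovery does not carry over to these data.

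The clones and lists were chosen with earlier results of these data known. Clones named per donor were the 5 highest at baseline, those at 1% or more at disease, the 5 with the highest mean rise, up to 3 per direction of strain and of tissue, the 2 on either side of the minimum, the 3 shared clones and any called by limma. Alternatives were the limit for loss, the baseline minimum, the added constant, the filter, the fold, rescaling without the largest barcode, the donor block and leaving out a donor. Use of 1 library per disease sample, and of 1 donor for the summed shares, was added after seeing the data.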

Additional observations from a re-analysis of the deposited data

Results flagged for a closer look

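The summed share of BFP clones abundant at baseline differed between the strains in opposite directions in the donors. In donor 1 the log2 ratio of NSG to PTPRCA was 1.99 in marrow (7.27% against 1.83% of reads) and 1.52 in spleen (7.01% against 2.45%). In donor 2 it was -0.83 in marrow (1.65% against 2.94%) and -2.42 in spleen (1.67% against 8.90%). With 1 sample per donor, strain and tissue, the difference between donors was not tested. Without the largest of these clones in each sample the ratios were 2.13 and 1.88 in donor 1 and -0.18 and 0.051 in donor 2. The negative value in donor 2 spleen was thus not seen without BFP_Barcode_97773.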

How the results depend on the processing

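Of the values recomputed under alternatives, 79 stayed within their error or within 1.5 times the count and 56 moved. For the summed shares the error was the SD of the 2 donors. A single donor's value always lies within it, so that those values were bound to count as having stayed. The share in PTPRCA spleen also counted as having stayed, although it went from 5.67% (SD 4.56) to 1.41% without the largest clone. The count of 79 is therefore no measure of stability. The share lost in all 4 disease samples was 33.3% and 32.8% (donor 1 and donor 2) where lost meant listed at 0, 49.7% and 50.0% below 1 CPM, 69.8% and 77.6% below 10 CPM, 30.8% and 33.3% at a baseline minimum of 300 CPM, 47.4% and 47.5% with the first library and 48.1% and 47.2% with the second. The share detected in all 4 was 19.7% and 19.8% where lost meant listed at 0, 6.03% and 5.98% below 10 CPM, 13.8% in donor 2 below 1 CPM, 19.0% in donor 1 at a minimum of 50 CPM and 11.4% in donor 1 with the second library. The doubled share was 10.7% and 6.59% at a minimum of 50 CPM, 1.92% and 2.08% at 300 CPM, and 1.60% in donor 2 at 4 times.

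Clones over 4-fold apart by strain are given as higher in NSG and higher in PTPRCA, in donor 1 and then donor 2. They numbered 74, 14, 26 and 35 with 1 CPM added, 10, 1, 1 and 2 with 100 CPM added, 11, 0, 2 and 4 at over 3 on the log2 scale, and 5, 1, 1 and 7 at a minimum of 300 CPM. At a minimum of 50 CPM they were 59 (donor 1, NSG), 23 and 20 (donor 2), so that in donor 2 more were higher in NSG, against more in PTPRCA at 100 CPM. Rescaling without the largest barcode gave 17 higher in PTPRCA in donor 2. By tissue, with 1 CPM added, 5 clones of donor 1 and 6 of donor 2 were higher in marrow and 1 of donor 2 in spleen. At a minimum of 50 CPM, 3 and 1 were higher in marrow and 3 of donor 1 in spleen, and the 1 marrow clone of donor 1 became 0 with 100 CPM added, at over 3 and at 300 CPM.

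The summed share in PTPRCA marrow was 1.45% without the largest clone and 3.603% after rescaling. In single donors the shares ran from 1.65% to 7.27% in NSG marrow, 1.67% to 7.01% in NSG spleen, 1.83% to 2.94% in PTPRCA marrow and 2.45% to 8.90% in PTPRCA spleen. For the strain limma called 10 clones with the replicate block and 0 under the other alternatives, and for the tissue 0 throughout. With a donor left out, the spread came only from how the strain difference varied between marrow and spleen of 1 donor (284 clones without replicate 1 and 333 without replicate 2 at an unadjusted p below 0.05 for the strain), and the count of 0 there says nothing about stability. Depth limits detection below about 1 CPM.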
